A study of Mus musculus with 4 samples.

Results

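Macrophages that enter a tumor can switch on genes for handling arginine, remodeling matrix, binding other cells, clearing lipid and degrading heme, and 10 such genes are described here: Arg1, Nos2, Spp1, Thbs1, Fn1, Vcam1, Trem2, Apoe, Gpnmb and Hmox1. They were taken as a fixed list of 10 out of the 31053 genes in the count tables, chosen with earlier results of these data known. They were followed in cells with at least 1 UMI (1 counted RNA molecule) of Csf1r, the receptor for the growth factor that macrophages depend on. The cells were CD45+ DAPI- immune cells sorted from 2 skins of C57 mice (control skins 1 and 2) and from 2 tumors in the flank of C57BL/6 hosts (skin tumors 1 and 2). The genotype label of all 4 libraries is C57/BL6. Both tumors grew from 1 line, 2323, derived from a K14rtTA/tetOCre mouse model, in which a keratin 14 promoter drives an inducible Cre system, so the tumor group stands for a single line. The hosts were males and females of 8 to 10 weeks at injection and were killed while their tumors were still small, and the age of the control mice is not given in the sources used here. The Y-linked gene Ddx3y was found in every library, at 0.884 to 2.04 UMIs per 10000 in Csf1r-positive cells, and Xist was at most 0.00645. By these genes the Csf1r-positive cells of all 4 libraries were almost all male, although the hosts of the study were of both sexes. No source used here states whether each library came from a separate animal, so the p-values below measure the spread between these 4 samples, which may be technical.

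The 4 libraries held 2258 to 5176 cells, and 2958, 3040, 4762 and 1938 immune cells were kept in control skins 1 and 2 and skin tumors 1 and 2. Csf1r was found in 879, 1185, 2665 and 1079 of them, which was 29.7% and 39.0% of the cells in control skins against 56.0% and 55.7% in skin tumors. The median depth of these cells was close in all libraries, between 17422 and 19113 UMIs. Their make-up was not. Cells rich in Cd207, the marker of Langerhans cells, were 54.6% and 37.3% of Csf1r-positive cells in control skins against 0.0750% and 0.463% in skin tumors, while cells rich in the complement genes C1qa, C1qb and C1qc (the C1q-high gate, with a sum of at least 10 UMIs per 10000) were 10.8% and 23.0% in control skins against 71.9% and 68.0% in skin tumors. Another gate, with little C1q and with Ly6c2 or Plac8, genes of monocytes, held 7.17%, 15.02%, 21.0% and 19.9%. The remaining Csf1r-positive cells, low in C1q and without Ly6c2 or Plac8, were 27.4% and 24.7% in control skins against 7.09% and 11.6% in skin tumors. Of the Csf1r-positive cells, 591 of the 4879 outside the Cd207-rich gate had a C1q sum between 5 and 20, near the limit. All 9 macrophage markers were detected in every library, but Csf1r is among them and defines the cells. Their summed level in Csf1r-positive cells was 14.95 and 22.5 UMIs per 10000 in control skins against 84.6 and 56.2 in skin tumors. C1qa, C1qb and C1qc, which define the C1q-high gate, made up most of the sum in tumors. Adgre1 overlapped between groups (1.51 and 2.10 against 3.20 and 2.04), and the other markers were higher in both tumors. In the C1q-high gate Cd68 was lower in both tumors (3.33 and 3.53 against 3.07 and 2.64), Adgre1 overlapped and the others were higher.

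Other signals moved with the groups. The 5 T cell genes Cd3d, Cd3e, Cd3g, Trac and Trdc summed to 9.90 and 10.3 UMIs per 10000 in Csf1r-positive cells of control skins against 0.475 and 1.39 in skin tumors, and at least 2 of them were found in 36.3%, 31.9%, 3.75% and 17.3% of these cells. The 5 dissociation genes Fos, Jun, Hspa1a, Hspa1b and Atf3 summed to 35.1 and 30.1 in control skins against 67.2 and 60.9 in skin tumors. The largest differences were in Hspa1a (8.90 and 5.75 against 23.4 and 21.6) and Hspa1b (9.25 and 6.96 against 21.7 and 19.6). Fos and Jun were also higher in both tumors, whereas Atf3 was lower (6.84 and 6.57 against 6.03 and 6.29). The part of the T cell and dissociation genes in the results below was not tested. The tests of the 10 genes were repeated without cells that held 2 or more T cell genes or over 50000 UMIs (called doubtful cells). The pathway lists, the nearest genes and the numbers of genes per cell are given with those cells included. Any 2 libraries shared between 1 and 7 cell barcodes.

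As background, arginase 1 (Arg1) and inducible nitric oxide synthase (Nos2) compete for arginine, the first making ornithine and urea and the second nitric oxide, and have long served as opposite landmarks of macrophage states. Osteopontin (Spp1), thrombospondin 1 (Thbs1) and fibronectin (Fn1) are secreted proteins that bind matrix and integrins, and Vcam1 is a surface ligand of the integrin made of Itga4 and Itgb1. Trem2 is a lipid-sensing receptor, Apoe carries lipid out of cells, Gpnmb is a glycoprotein of lysosomes and the cell surface, and heme oxygenase 1 (Hmox1) breaks down heme.

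In Csf1r-positive cells, 5 of the 10 genes rose in skin tumors: Nos2, Vcam1, Arg1, Apoe and Hmox1. None fell. The edgeR quasi-likelihood test with Benjamini-Hochberg adjustment over 14643 genes called 8.89% of all genes higher and 13% lower in the same comparison, 21.9% in either direction. The median log2 fold change was 1.62 for the 10 genes and 0.05 for all genes tested. Because the 10 genes were chosen with earlier results of these data known, their excess over all genes is a description and not a test. Both tumor libraries lay above both control libraries for 7 of the 10 (Thbs1 and Trem2 in addition), as they did for 41.2% of all genes, and below both for none of the 10 and 29.4% of all genes. Because counts were summed over cells, more cells of a kind and more RNA in each of them cannot be told apart in these sums.

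**Figure D1:**
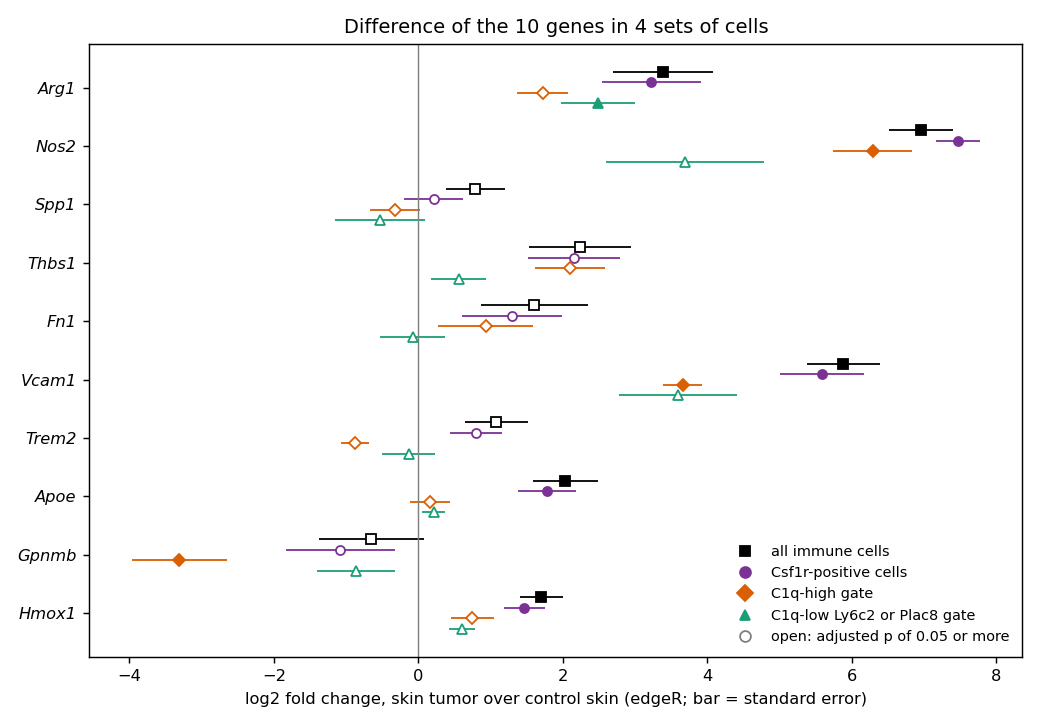
Fold change of each of the 10 genes between skin tumors and control skins. The x axis gives the edgeR log2 fold change with its standard error, each symbol is 1 set of cells (2 libraries against 2), and filled symbols passed an adjusted p of 0.05. The standard error was derived from the F value and is too narrow for Nos2, which had 4 UMIs in Csf1r-positive cells of control skins. Nos2 and Vcam1 lie farthest to the right in Csf1r-positive cells, at 7.47 and 5.59, while Apoe is at 1.78 in Csf1r-positive cells and at 0.16 in the C1q-high gate.

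The arginine enzymes both rose. Arg1 (chr10:24915221-24927484, minus strand, GRCm38) stood at 0.0354 and 0.130 UMIs per 10000 in Csf1r-positive cells of control skins against 0.610 and 1.07 in skin tumors. The groups did not overlap, and skin tumor 2 was the highest. The log2 fold change was 3.23 (SE 0.69, adjusted p = 0.0349 by edgeR). Few cells held it. After each cell was thinned to 3000 UMIs, it was found in 0.691% and 1.04% of Csf1r-positive cells of control skins against 5.02% and 12.5% in skin tumors, and the top 10% of cells held 99.6% of its UMIs in skin tumor 1 and 83.4% in skin tumor 2. In the T cell gate, which should lack it, Arg1 was found in at most 0.576% of the thinned cells of a library. Before thinning, the median depths of that gate were 8080 to 10185 UMIs.

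Nos2 (chr11:78920787-78960254, plus strand) was nearly absent from control skins. Csf1r-positive cells of control skins 1 and 2 held 2 UMIs each, in 1 cell each, and those of skin tumors 1 and 2 held 884 and 418, in 106 and 81 cells. As a level this was 0.00101 and 0.000792 UMIs per 10000 in control skins against 0.175 and 0.180 in skin tumors, so the tumors lay close together and far above the controls. The ratio of the summed rates was 199, with an exact 95% interval of 77.4 to 731 that covers counting error only, and edgeR gave a log2 fold change of 7.47 (SE 0.31, adjusted p = 0.0044) that depends on its prior count. This SE was derived from the F value and is narrower than the exact interval. It does not measure the precision of a ratio with 4 control UMIs. Even in tumors Nos2 was rare: it was found in 1.53% and 2.17% of thinned Csf1r-positive cells, against 0 of 868 cells in control skin 1 and 1 of 1150 in control skin 2. The 0 of 868 allows up to 0.346% of cells with a UMI of Nos2 at 3000 UMIs, and sets no limit on cells that express it. In the T cell gate Nos2 was found in at most 0.350% of cells of a library. In skin tumor 1 a single cell held 150 of the 884 UMIs.

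The secreted matrix proteins did not move as one, and none of the 3 passed the edgeR test in Csf1r-positive cells. Thbs1 (chr2:118111876-118127133, plus strand, with the antisense gene Gm29233) had 1.20 and 3.03 UMIs per 10000 in control skins against 5.88 and 14.3 in skin tumors. Its groups did not overlap, and the log2 fold change was 2.15 (SE 0.64, adjusted p = 0.0708 by edgeR). Thbs1 was called by DESeq2 (adjusted p = 0.000807) and by edgeR with no filter on low counts (adjusted p = 0.00298). Among thinned Csf1r-positive cells Thbs1 was found in 6.91% and 15.7% in control skins against 34.9% and 65.6% in skin tumors, and in at most 6.29% of the T cell gate. Thbs1 was also carried by neutrophils, with 32.1 to 48.9 UMIs per 10000 in cells outside the T cell gate with Csf3r, at least 10 UMIs per 10000 of S100a8 and S100a9 and no Csf1r, and the 5 neutrophil genes summed to 0.727 and 1.58 in Csf1r-positive cells of control skins against 1.76 and 4.23 in skin tumors.

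Fn1 (chr1:71585520-71653200, minus strand, with the antisense gene Apol7d) had 0.699 and 1.23 UMIs per 10000 in control skins against 1.04 and 4.02 in skin tumors. Only skin tumor 2 lay above both controls, and without it the log2 fold change of 1.30 (SE 0.69, adjusted p = 0.23 by edgeR) became -0.03. Spp1 (chr5:104435118-104441050, plus strand, overlapping Gm42793 on the same strand) had 0.856 and 1.31 in control skins against 0.894 and 1.79 in skin tumors, a log2 fold change of 0.21 (SE 0.41, adjusted p = 0.734 by edgeR) with overlapping groups. Spp1 was not confined to Csf1r-positive cells, which held 73.3% and 87.7% of its UMIs among immune cells of control skins against 69.1% and 70.1% in skin tumors. It reached 35.8 UMIs per 10000 in the 16 neutrophil-gate cells of control skin 1, where a single cell held 274 UMIs.

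Vcam1 (chr3:116109949-116129688, minus strand, with the antisense gene Gm43109) showed the widest gap after Nos2. Its level was 0.0222 and 0.0625 UMIs per 10000 in control skins against 2.71 and 1.76 in skin tumors, with a log2 fold change of 5.59 (SE 0.58, adjusted p = 0.00969 by edgeR). It was found in 0.691% and 1.04% of thinned Csf1r-positive cells in control skins against 26.8% and 21.7% in skin tumors, and in 0.0868%, 0.200%, 1.73% and 2.10% of the T cell gate. Here skin tumor 1 was the higher of the pair, unlike Arg1, Thbs1, Fn1 and Hmox1. Nos2 and Vcam1 passed the test under each of the 14 alternative settings run for Csf1r-positive cells.

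Of the lipid and lysosome genes only Apoe rose. Apoe (chr7:19696109-19699188, minus strand) had 10.2 and 20.4 UMIs per 10000 in control skins against 64.3 and 48.6 in skin tumors, with no overlap and a log2 fold change of 1.78 (SE 0.40, adjusted p = 0.0391 by edgeR). It was found in 35.3% and 50.7% of thinned Csf1r-positive cells in control skins against 81.6% and 79.9% in skin tumors, but also in 6.86%, 17.8%, 19.9% and 34.3% of the T cell gate. Trem2 (chr17:48346401-48354147, plus strand) had 0.303 and 0.587 in control skins against 0.729 and 0.934 in skin tumors, which did not overlap but did not pass the test (log2 fold change 0.80, SE 0.36, adjusted p = 0.167 by edgeR). Gpnmb (chr6:49036546-49070929, plus strand) had 0.366 and 0.988 in control skins against 0.152 and 0.536 in skin tumors, with overlap and a log2 fold change of -1.08 (SE 0.75, adjusted p = 0.341 by edgeR). Its UMIs sat in few cells, with at least 93.6% of them in the top 10% of Csf1r-positive cells in each library.

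Hmox1 (chr8:75093621-75100589, plus strand) had 2.50 and 3.08 UMIs per 10000 in control skins against 6.42 and 10.1 in skin tumors. The groups did not overlap, and the log2 fold change was 1.47 (SE 0.29, adjusted p = 0.0295 by edgeR). It was found in 21.3% and 31.0% of thinned Csf1r-positive cells in control skins against 54.3% and 71.4% in skin tumors, and in 3.31% to 11.5% of the T cell gate. Hmox1 was spread over many cells, and the top 10% of cells held 47.3% and 36.6% of its UMIs in skin tumors 1 and 2.

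**Figure D2:**
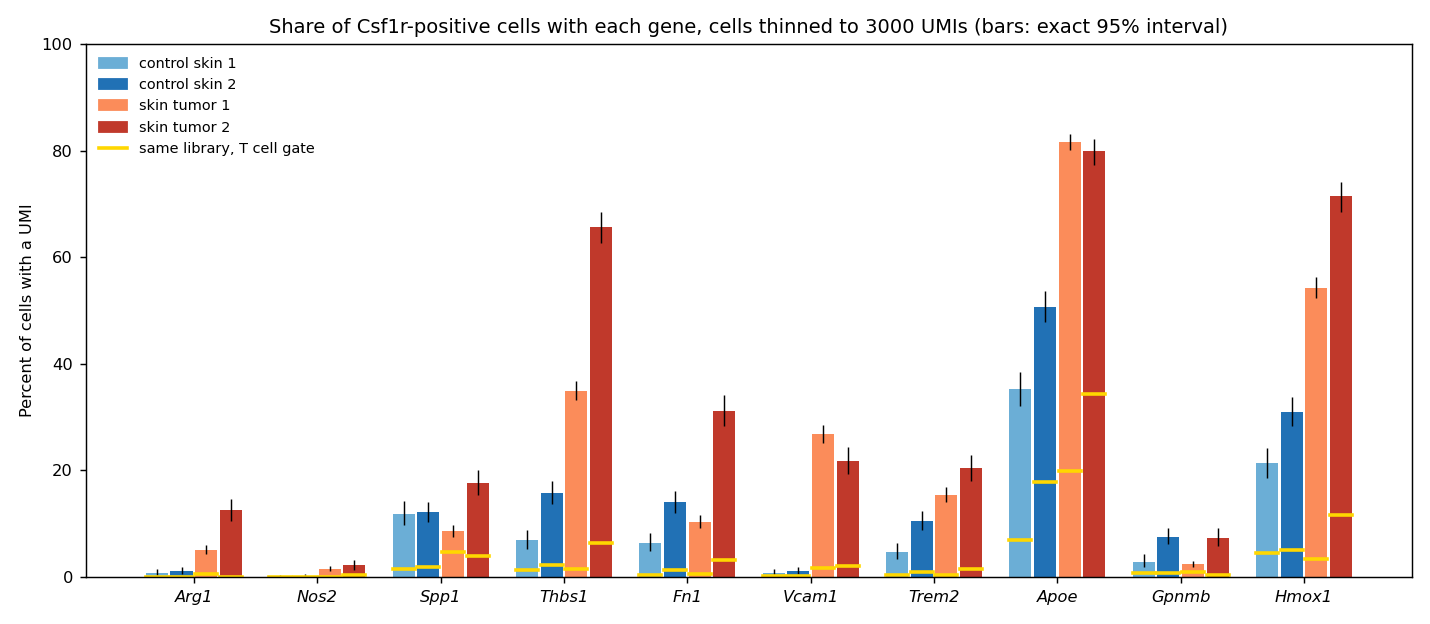
Percent of Csf1r-positive cells with at least 1 UMI of each gene, after thinning to 3000 UMIs per cell. Each bar is 1 library with its exact 95% interval, and the yellow line is the share in the T cell gate of the same library. Both tumor bars stand above both control bars for 7 of the 10 genes, and not for Spp1, Fn1 and Gpnmb.

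With cells at 3000 UMIs, both tumor libraries were above both control libraries for 7 of the 10 genes and for 35.5% of the 14643 genes tested, and the exact permutation test of 2 against 2 libraries cannot give a p under 0.33 for any of them. At full depth the tumor share of Vcam1 was 44.3% and 41.1%, and that of Arg1 was 10.4% and 26.5%, against 1.93% and 2.53% for Vcam1 and 1.37% and 2.45% for Arg1 in control skins.

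The gates differed in level. Cells rich in Cd207, which were many in control skins and 7 in all in skin tumors, held little of most of the 10 genes: Apoe was at 5.02 and 5.69 UMIs per 10000 and Hmox1 at 0.832 and 0.752 there, against 45.5 and 67.0 and against 4.39 and 4.73 in the C1q-high gate of the same skins. With the Cd207-rich cells left out, Nos2 and Vcam1 still passed (log2 fold change 6.59 and 4.83, edgeR adjusted p = 0.00566 and 0.0102), whereas Arg1 at 2.41 (adjusted p = 0.0588), Apoe at 1.18 (adjusted p = 0.0983) and Hmox1 at 0.77 (adjusted p = 0.123) did not. The cells left still differed in make-up. C1q-low cells without Ly6c2 or Plac8 were 241 and 293 in control skins, beside 95 and 272 C1q-high cells. In skin tumors they were 189 and 125, beside 1915 and 734. The part of this difference was not tested. The number of all genes called also varied between the settings of this paragraph, so a call gained or lost is not by itself a result about a member. Without doubtful cells the same edgeR test called 3 of the 10 genes, with Apoe at 1.83 (adjusted p = 0.0663) and Hmox1 at 1.33 (adjusted p = 0.0511) lost. Without control skin 1 it called 2, Nos2 and Vcam1. Without control skin 2 it called 4, and Hmox1 was the one lost (adjusted p = 0.0847). Without skin tumor 1 Apoe was lost (adjusted p = 0.0651), and Fn1 at 1.98 (adjusted p = 0.0243) and Thbs1 at 2.67 (adjusted p = 0.032) were gained. Without skin tumor 2 the same 5 genes were called higher and Gpnmb, at -2.29 (adjusted p = 0.049), was called lower.

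Over all immune cells the same 5 genes rose as in Csf1r-positive cells, where 11.6% of the 16282 genes tested were called higher and 15.8% lower, 27.5% in either direction. Both tumors lay above both controls for 9 of the 10 genes and for 45.1% of all genes, and below for none of the 10 and 28% of all genes. The log2 fold changes by edgeR were 6.96 for Nos2, 5.88 for Vcam1, 3.39 for Arg1, 2.03 for Apoe and 1.70 for Hmox1, with adjusted p from 0.00377 to 0.0342. Apoe was lost without doubtful cells (edgeR adjusted p = 0.0701) and without skin tumor 1 (adjusted p = 0.0685), where Fn1 (2.28, adjusted p = 0.0336) and Spp1 (1.22, adjusted p = 0.0487) were gained. Hmox1 was lost without control skin 1 (edgeR adjusted p = 0.065), and Thbs1 (3.29, adjusted p = 0.026) and Trem2 (1.81, adjusted p = 0.0172) were gained without control skin 2. Csf1r-positive cells were the main source in tumors, with 87.6% and 96.1% of the Arg1 UMIs of immune cells, 90.4% and 96.1% of Nos2, 98.3% and 97.9% of Apoe and 93.4% and 78.5% of Vcam1 in skin tumors 1 and 2.

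Within the C1q-high gate, Nos2 and Vcam1 rose, Gpnmb fell, and the other 7 did not pass, among 12875 genes of which 1.58% were called higher and 4.31% lower, 5.9% in either direction. Both tumors lay above both controls for 5 of the 10 (Arg1, Nos2, Thbs1, Hmox1 and Vcam1) and for 38% of all genes, and below both for 2 (Trem2 and Gpnmb) and for 20.8% of all genes. The gate held 95 and 272 cells in control skins against 1915 and 734 in skin tumors. Of these, 27 and 64 control cells and 167 and 101 tumor cells had a C1q sum under 20. C1q was not matched within the gate. C1qa stood at 13.6 and 14.2 UMIs per 10000 in control skins against 30.7 and 21.0 in skin tumors, and C1qb and C1qc were also higher in both tumors. The median log2 fold change of the 10 genes was 0.84 here, against 0.04 for all genes tested. The T cell genes summed to 11.8 and 11.5 UMIs per 10000 in the gate in control skins against 0.370 and 1.24 in skin tumors.

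Vcam1 had 0.164 and 0.227 UMIs per 10000 in the C1q-high gate of control skins against 3.30 and 2.22 in skin tumors, a log2 fold change of 3.66 (SE 0.27, edgeR adjusted p = 0.00652). Nos2 had 0 and 2 UMIs in the control gate and 794 and 382 in the tumor gate, a ratio of summed rates of 85.2 with an exact interval of 23.5 to 704. Gpnmb ran the other way, with 1.48 and 3.11 UMIs per 10000 in control skins against 0.121 and 0.386 in skin tumors, and fell by 3.31 on the log2 scale (SE 0.66, edgeR adjusted p = 0.0479). Both tumors lay below both controls, and thinned cells with Gpnmb were 10.6% and 19.5% in control skins against 1.86% and 6.82% in skin tumors. Trem2 was also lower in both tumors (1.52 and 1.70 against 0.854 and 1.07), but its log2 fold change of -0.87 missed the threshold (SE 0.19, edgeR adjusted p = 0.0607).

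Apoe, Hmox1 and Arg1, which rose in Csf1r-positive cells as a whole, did not pass in this gate. Apoe had 45.5 and 67.0 UMIs per 10000 in control skins against 77.0 and 61.1 in skin tumors, so that the libraries interleaved (log2 fold change 0.16, SE 0.28, edgeR adjusted p = 0.785). Hmox1 had 4.39 and 4.73 against 6.15 and 10.5 (log2 fold change 0.75, SE 0.30, edgeR adjusted p = 0.207). Arg1 had 0.196 and 0.303 against 0.678 and 1.15 and came close to the threshold (log2 fold change 1.72, SE 0.35, edgeR adjusted p = 0.0508), and Thbs1 had 1.73 and 2.04 against 4.78 and 12.8 (2.11, SE 0.49, edgeR adjusted p = 0.0686). Spp1 and Fn1 overlapped between groups, at log2 fold changes of -0.32 and 0.93.

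These calls changed with the method and with which cells were counted. Without control skin 1 and without control skin 2, the log2 fold change by edgeR was 3.47 and 3.95 for Vcam1, 5.79 and 11.7 for Nos2 and -3.74 and -2.66 for Gpnmb. Those fits leave 1 control library, so they cannot show whether a call depends on a control. DESeq2 on all 4 libraries called 1388 genes, and 3012 genes (23.4%) had an unadjusted edgeR p under 0.05. Without skin tumor 1 and without skin tumor 2, the log2 fold change by edgeR was 3.37 and 3.86 for Vcam1, 6.34 and 6.15 for Nos2 and -2.68 and -4.44 for Gpnmb. With cells thinned to 3000 UMIs, Nos2 at 3.72 was lost (edgeR adjusted p = 0.0563) and Thbs1 at 2.08 was gained (adjusted p = 0.0453). With the limit on the C1q sum at 20, Gpnmb was lost (edgeR adjusted p = 0.107) and Trem2, at -1.03, was called lower (adjusted p = 0.0491), and with the limit at 5 Gpnmb was lost (adjusted p = 0.0691) and Arg1 at 1.94 was gained (adjusted p = 0.0425). Without doubtful cells Nos2 (adjusted p = 0.0296) and Vcam1 (adjusted p = 0.0386) were still called, while Gpnmb kept its size, at -3.65, but not its call (adjusted p = 0.131), and Arg1 was at 0.91 (adjusted p = 0.334). In those cells Arg1 stood at 0.365 and 0.492 UMIs per 10000 in control skins against 0.684 and 1.18 in skin tumors.

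Gpnmb and Trem2 are shown with their promoters because both were lower in the C1q-high gate of each tumor, as were 20.8% of all genes. Trem2 did not pass the test there. The sequences are from RefSeq (GRCm38.p6), run 5′ to 3′ on the gene's strand from 250 bases before to 50 bases after the start, and lie at chr6:49036268-49036567 (plus strand) for Gpnmb and chr17:48346151-48346450 (plus strand) for Trem2. Capitals mark TGANTCA with any base at N, searched on both strands. This pattern is wider than the AP-1 element, so a match need not be one. The base at N is C in Gpnmb and A in Trem2.
Gpnmb: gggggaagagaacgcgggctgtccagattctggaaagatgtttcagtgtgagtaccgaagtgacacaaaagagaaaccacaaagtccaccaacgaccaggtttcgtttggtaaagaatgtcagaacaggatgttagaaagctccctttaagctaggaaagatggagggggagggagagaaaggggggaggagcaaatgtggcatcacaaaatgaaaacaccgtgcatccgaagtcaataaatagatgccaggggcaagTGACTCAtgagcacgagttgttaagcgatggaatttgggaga
Trem2: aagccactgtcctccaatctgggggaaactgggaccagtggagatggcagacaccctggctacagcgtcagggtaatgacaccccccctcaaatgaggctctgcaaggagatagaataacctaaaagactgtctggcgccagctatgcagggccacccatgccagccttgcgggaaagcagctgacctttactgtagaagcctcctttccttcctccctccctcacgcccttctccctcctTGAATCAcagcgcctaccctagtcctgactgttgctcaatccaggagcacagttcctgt
Counted from 0 at the first transcribed base by RefSeq, the pattern begins at position 8 in Gpnmb and -9 in Trem2. The GENCODE start of Gpnmb lies 28 bases further on, so by that start the pattern is upstream of the gene. The pattern is in 7.81% of the 32851 promoters of this length. It was not found in the promoters of Spp1 and Apoe, and the E-box CACGTG, the antioxidant response element TGACNNNGC and the hypoxia core ACGTG were in none of these 4 promoters, against 7.15%, 12.4% and 19.6% of all promoters. A match describes the letters and not a bound site, and 4 promoters are too few to link a pattern to a difference between the groups. The table held 4 of the 10 genes, and Arg1, Nos2, Thbs1, Fn1, Hmox1 and Vcam1 were not in it.

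In the C1q-low gate with Ly6c2 or Plac8, where monocyte-like cells would fall, Arg1 was the one gene of the 10 that rose, among 10731 genes of which 1.57% were called higher and 5.4% lower, 6.98% in either direction. The gate held 63 and 178 cells in control skins against 559 and 215 in skin tumors. Median depth differed here, at 20605 and 15215.5 UMIs in control skins against 11831 and 13096 in skin tumors, and its part was not tested. At least 2 T cell genes were found in 46.0% and 30.9% of the control cells against 5.90% and 16.7% in skin tumors. The mast cell gene Mcpt4 had 2.62 and 1.49 UMIs per 10000 in control skins against 0.0117 and 0.00861 in skin tumors. The mast cell genes Cma1 and Cpa3 were also lower in both tumors, while Kit was higher (0.104 and 0.137 against 0.230 and 0.146). Both tumors lay above both controls for 5 of the 10 and 31.3% of all genes, and below for 1 (Gpnmb) and 23.8% of all genes. The level of Arg1 was 0.0905 and 0.103 UMIs per 10000 in control skins against 0.326 and 0.850 in skin tumors (log2 fold change 2.49, SE 0.51, edgeR adjusted p = 0.0398), and the call was lost without either control skin (adjusted p = 0.176 and 0.206) and without doubtful cells (adjusted p = 0.186). Vcam1 had 0 and 3 UMIs in these cells of control skins against 44 and 36 in skin tumors, a ratio of summed rates of 11.8 with an exact interval of 3.89 to 58.3 (edgeR adjusted p = 0.0523). Nos2 had 2 and 0 UMIs in control skins against 33 and 30 in skin tumors, a ratio of 13.9 with an interval of 3.70 to 117 (edgeR adjusted p = 0.11). Thbs1 was high in all libraries of this gate, at 8.95, 14.3, 12.04 and 23.95 UMIs per 10000, and Fn1 at 2.48, 2.78, 1.36 and 3.87, with overlapping groups.

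**Figure D3:**
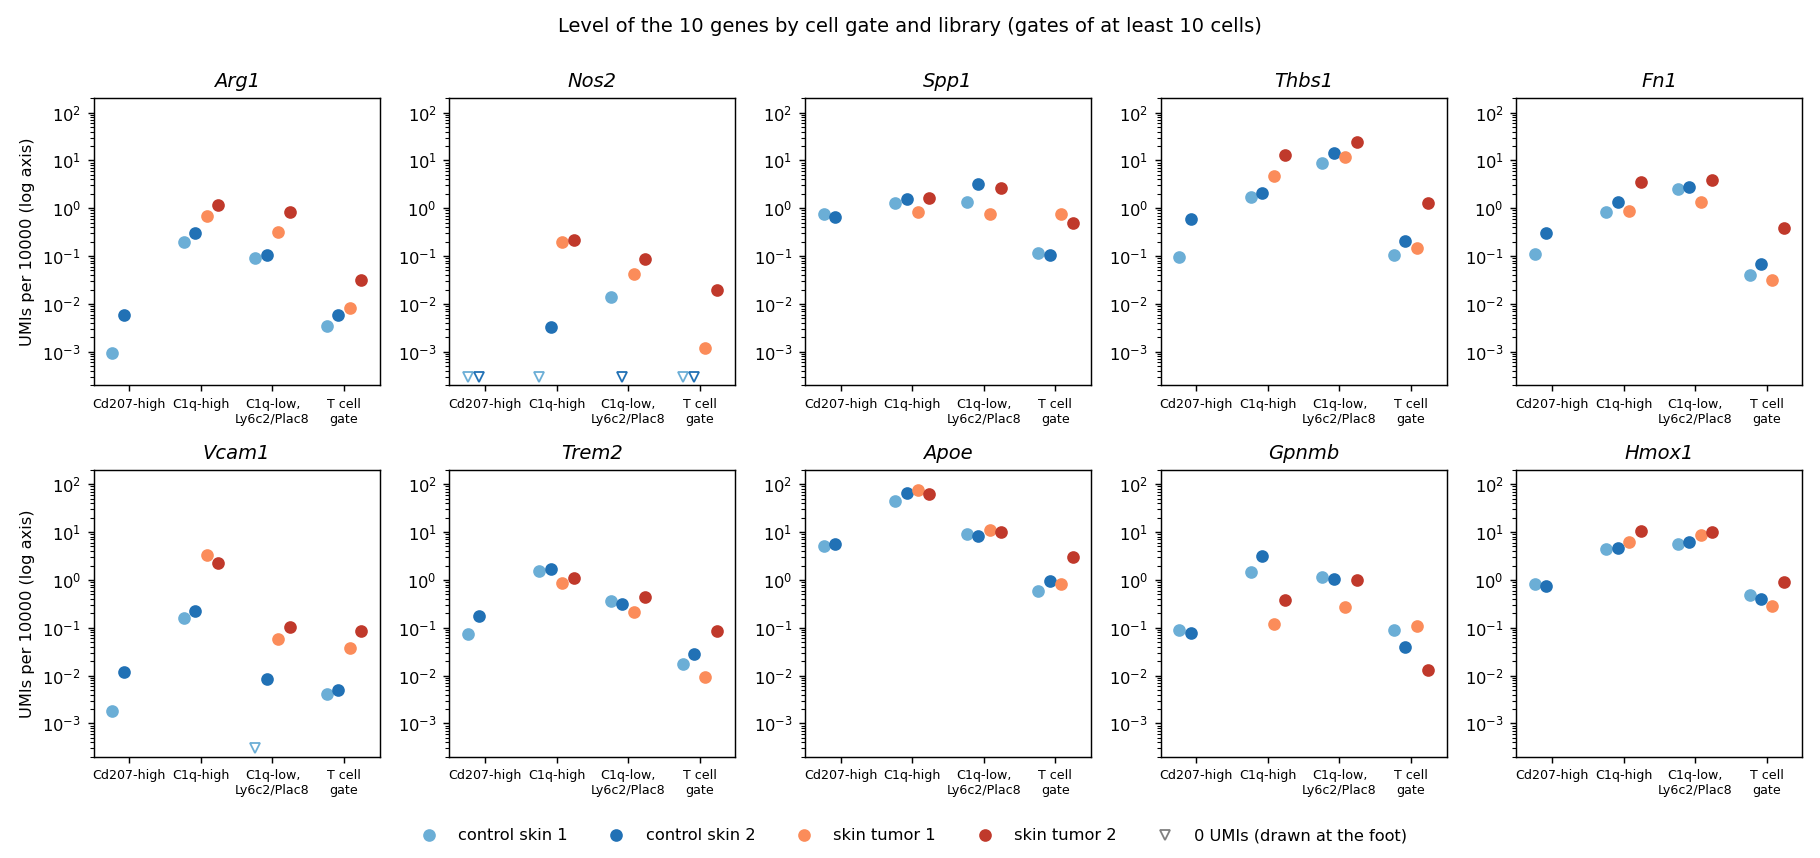
Level of each gene in 4 gates of cells, as UMIs per 10000 on a log axis, 1 point per library. Vcam1 in skin tumors is at 3.30 and 2.22 in the C1q-high gate and at 0.0573 and 0.103 in the C1q-low gate, while Thbs1 and Fn1 are as high or higher in the C1q-low gate. Open triangles are libraries with 0 UMIs.

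The tumor difference itself was compared between both gates. By the edgeR test of the difference of log2 fold changes, blocked by library, none of the 10 genes passed, and 12 of 11995 genes did (0.1%), with 1095 (9.13%) at an unadjusted p under 0.05. Thbs1 was nearest on the side of the C1q-high gate (difference 1.42, SE 0.21, adjusted p = 0.0768) and Gpnmb on the other side (-2.39, SE 0.34, adjusted p = 0.0651). Thbs1 passed without doubtful cells (1.63, adjusted p = 0.0283) and with library totals alone as scale (1.49, adjusted p = 0.0318). Without skin tumor 1, the test called 3 genes (Thbs1, Gpnmb and Fn1), without skin tumor 2 it called Thbs1 and Gpnmb, and without control skin 1 it called Gpnmb.

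The 10 genes were then followed within single cells, in Csf1r-positive cells thinned to 3000 UMIs, by setting the number of cells with both genes of a pair beside the number that the product of their shares gives. Cells are no replicates, so each tumor library gives 1 value and the values are descriptions. Of the 45 pairs, 38 had at least 5 cells at the product in both tumors, 24 of these were above the product in both tumors and 8 were below in both. In control skins 13 pairs had as many cells, 12 of these were above the product in both skins and none below. The median log2 odds ratio over the pairs counted in a group was 1.38 in control skins and 0.41 in skin tumors. Pairing was thus not particular to tumors. Within the C1q-high gate the medians were 0.31 and 0.36. In skin tumors the count above the product was 42 of 45 at full depth, and without doubtful cells 22 of the 38 were above and 10 below.

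Arg1 went with Fn1. Both were found together in 49 cells of skin tumor 1 and 86 of skin tumor 2, which was 3.63 and 2.09 times the product, with log2 odds ratios of 2.62 and 2.38. Fn1 was in 37.4% and 65.2% of the Arg1 cells of skin tumors 1 and 2. The same pair stood at 3.35 and 2.36 within the C1q-high gate, and between 2.16 and 2.86 as a mean of the tumors over all settings. Trem2 was also more frequent in Arg1 cells, with log2 odds ratios of 1.49 and 1.37. Control skins held too few Arg1 or Vcam1 cells to place the pairs of these genes.

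Vcam1 went with Apoe and apart from Fn1 and Arg1. Of the Vcam1 cells, 96.0% and 94.3% held Apoe, with log2 odds ratios of 2.87 and 2.36. Fn1 and Vcam1 were found together in 18 and 39 cells, 0.250 and 0.544 of the product, with log2 odds ratios of -2.48 and -1.39, and of -2.20 and -1.45 within the C1q-high gate. Arg1 and Vcam1 were together in 25 and 17 cells, with log2 odds ratios of -0.64 and -0.98, but at full depth the pair stood at 0.19 and 0.10. Fn1 and Apoe were also apart, at -0.89 and -0.81, against a mean of 0.37 in control skins. Both sides of this split were in the C1q-high gate, which held 61.9% and 62.7% of the Fn1 UMIs and 92.0% and 75.7% of the Vcam1 UMIs of tumor immune cells.

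**Figure D4:**
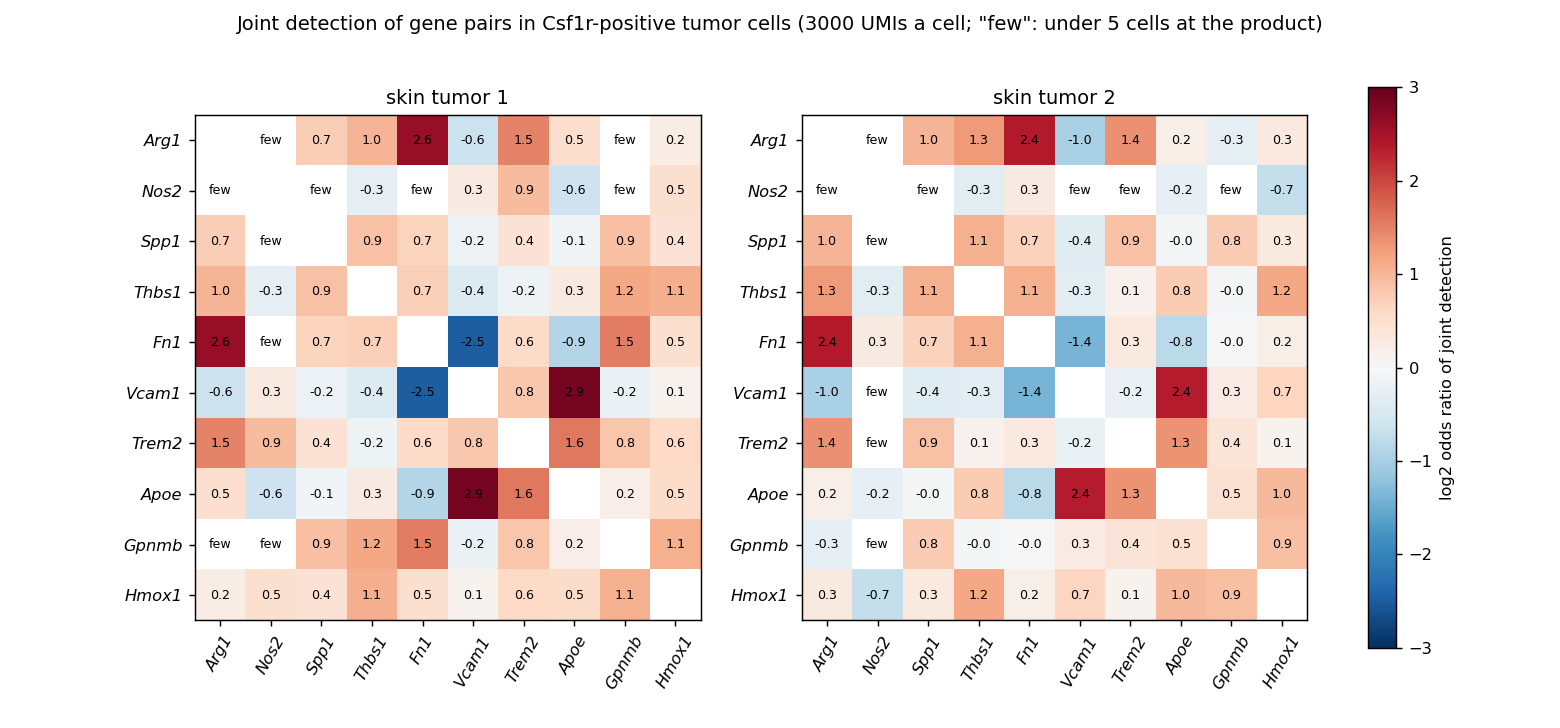
Log2 odds ratio of finding both genes of a pair in a Csf1r-positive cell thinned to 3000 UMIs, for skin tumor 1 (left) and skin tumor 2 (right). Red pairs were found together more often than the product of their shares and blue pairs less often, as for Arg1 with Fn1 (2.62 and 2.38) and Fn1 with Vcam1 (-2.48 and -1.39).

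Arg1 and Nos2, which use the same substrate, were found together in some cells. They met in 2 of 2610 thinned cells in skin tumor 1 and 6 of 1059 in skin tumor 2, where the product of the shares gives too few cells to place the pair. At full depth Arg1 and Nos2 met in 25 and 35 cells, 2.27 and 1.63 times the product, and 23.6% and 43.2% of the Nos2 cells held Arg1. Depth was not held equal between cells in that setting, where 42 of the 45 pairs were above the product. The excess at full depth therefore does not place this pair either. In thinned cells of skin tumors, Thbs1 and Hmox1, both common, had log2 odds ratios of 1.08 and 1.17, and Trem2 and Apoe had 1.59 and 1.34. The means in control skins were higher, at 3.15 (SD 1.77) for Thbs1 with Hmox1 and 2.59 (SD 0.26) for Trem2 with Apoe. The make-up of Csf1r-positive cells differed between the groups, and its part in these values was not tested.

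On average, Csf1r-positive cells of tumors held more of the 10 genes. This mean is the sum of the shares of the 10 genes and is not a separate result. At 3000 UMIs per cell the mean number was 0.907 and 1.44 in control skins against 2.41 and 3.30 in skin tumors, and cells with none were 46.0% and 31.1% against 5.90% and 3.21%. Cells with 5 or more made up 1.04% and 2.87% in control skins, 4.75% in skin tumor 1 and 20.4% in skin tumor 2. Within the C1q-high gate the mean was 2.12 and 2.46 in control skins against 2.60 and 3.59 in skin tumors, so skin tumor 1 lay close to control skin 2.

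**Figure D5:**
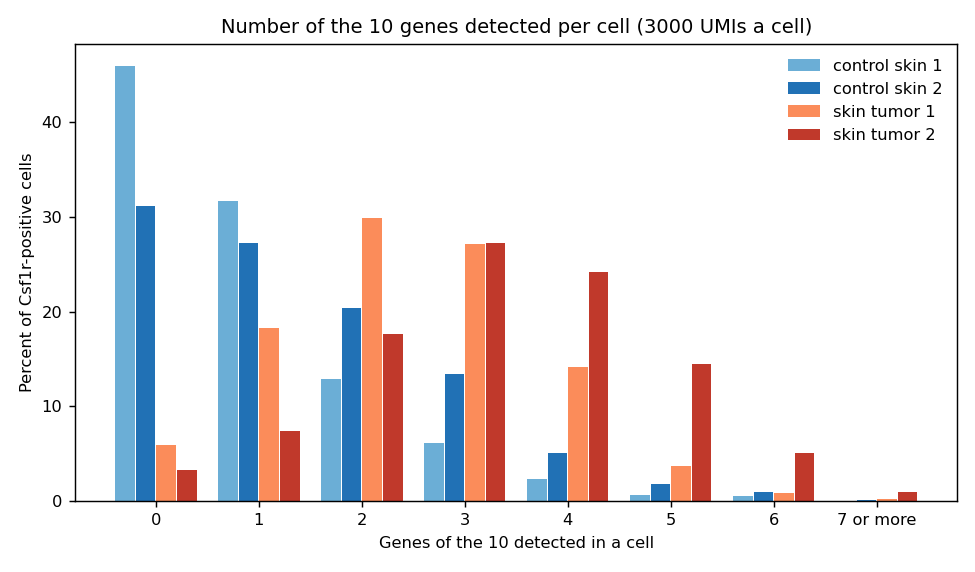
Percent of Csf1r-positive cells by the number of the 10 genes found in them at 3000 UMIs per cell, 1 bar per library. Control bars peak at 0 genes (46.0% and 31.1%), skin tumor 1 at 2 genes (29.8%) and skin tumor 2 at 3 genes (27.2%).

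The genes most alike to each member were sought among 9813 genes (9814 for Nos2) found in at least 5% of Csf1r-positive cells of both tumors. Pearson r of log levels over the 2665 and 1079 cells was averaged over both tumors and is given as a description, since cells are no replicates. The cells were not thinned, and the part of their depth and make-up in r was not tested. Arg1 lay nearest Fn1 (r 0.38), Pgk1 (0.28) and Gpi1 (0.25), the last 2 being enzymes of glycolysis. Nos2 lay nearest Slc7a2 (0.27), a transporter that brings arginine into the cell, followed by C3 (0.18) and Procr (0.17). Thbs1 lay nearest Cd14 (0.54), Emilin2 (0.49) and Smox (0.48), and Fn1 nearest the chemokines Ccl6 (0.44) and Ccl9 (0.42) and Anxa2 (0.39).

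Apoe and Vcam1 shared Selenop and Ms4a7 among their nearest genes. Apoe had Selenop at 0.76, Itm2b at 0.70 and Ms4a7 at 0.68, and Vcam1 had the chemokine Ccl8 at 0.62, Selenop at 0.59 and Ms4a7 at 0.53. Trem2 lay nearest Pf4 (0.47), Apoe (0.42) and Cd63 (0.39). Hmox1 lay nearest Fnip2 (0.36), Gclm (0.35), which makes part of the glutathione-forming enzyme, and Fth1 (0.34), the heavy chain of the iron store ferritin. The values of Spp1 with Pdpn (0.20), Lhfpl2 (0.20) and Cd14 (0.16), and of Gpnmb with Lhfpl2 (0.20), Met (0.19) and Clec4d (0.18), were weak.

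Genes of the same pathways were described by lists. Their counts stand beside the shares called of all genes tested, 8.89% higher and 13% lower in Csf1r-positive cells and 1.58% higher and 4.31% lower in the C1q-high gate, where the median log2 fold changes of all genes were 0.05 and 0.04. Among 12 other genes of arginine and nitric oxide metabolism, 3 rose (Arg2, Ass1 and Slc7a2) and 3 fell (Slc7a1, Oat and Gch1) in Csf1r-positive cells by edgeR, with a median log2 fold change of -0.03, and none passed in the C1q-high gate, where the median was also -0.03. Arg2, the mitochondrial arginase, had 0.107 and 0.220 UMIs per 10000 in control skins against 0.539 and 0.898 in skin tumors (log2 fold change 2.03, SE 0.45, adjusted p = 0.0376). Slc7a2 had 0.227 and 0.129 against 0.488 and 0.844 (1.81, SE 0.40, adjusted p = 0.037). In both the groups did not overlap.

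Among 14 genes of heme and iron handling, 5 rose (Blvra, Blvrb, Slc40a1, Nfe2l2 and Slc11a1) and 1 fell (Cd163), with a median log2 fold change of 0.83. Blvra reduces the biliverdin that Hmox1 makes. Slc40a1, the iron exporter, had 0.00657 and 0.00673 UMIs per 10000 in control skins against 0.0610 and 0.0413 in skin tumors (2.83, SE 0.37, adjusted p = 0.0139 by edgeR). Cd163, the receptor for hemoglobin bound to haptoglobin, had 0.202 and 0.255 against 0.0242 and 0.0219 (-3.41, SE 0.22, adjusted p = 0.00545 by edgeR). In the C1q-high gate Slc11a1 rose and Cd163 fell, and the median was 0.17.

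Among 16 genes of lipid handling, 2 rose (Fabp5 and Nr1h3) and 2 fell (Cd9 and Apoc1) in Csf1r-positive cells, with a median of 0.37, and both counts lie near the shares of all genes. Nr1h3, a sterol-sensing nuclear receptor that drives Apoe, had 0.0399 and 0.0621 UMIs per 10000 in control skins against 0.272 and 0.193 in skin tumors (2.07, SE 0.30, adjusted p = 0.0177 by edgeR). Cd9, also a gene of Langerhans and other skin cells, had 7.42 and 6.12 against 1.16 and 2.47 (-1.99, SE 0.41, adjusted p = 0.0319 by edgeR). In the C1q-high gate the median turned to -0.54, none rose, and Lpl, Fabp4 and Cd36, which release, bind and take up fatty acids in that order, fell.

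Among 12 integrins and receptors for the matrix members, 3 rose (Itga4, Itga9 and Itgb5) and none fell, with a median of 0.31. Itga9, part of an integrin that binds osteopontin and Vcam1, had 0.213 and 0.325 UMIs per 10000 in control skins against 3.54 and 2.28 in skin tumors (3.32, SE 0.32, adjusted p = 0.00892 by edgeR), and it was the one gene of the list called in the C1q-high gate, where the median was 0.14. Itgb5 had 0.242 and 0.305 against 1.14 and 0.683 (1.63, SE 0.28, adjusted p = 0.0229 by edgeR). Among 10 lysosome regulators and enzymes, Mitf, Ctsl and Lamp1 rose, with a median of 0.74. Ctsl had 0.850 and 1.56 against 3.25 and 4.11 (1.51, SE 0.34, adjusted p = 0.0395 by edgeR) and Lamp1 1.78 and 2.72 against 5.74 and 6.03 (1.28, SE 0.25, adjusted p = 0.0289 by edgeR). In the C1q-high gate none of the 10 rose and Atp6v0d2, a proton pump subunit, fell, and the median was -0.02.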

How the data were processed

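Immune cells of 2 control skins and 2 skin tumors were profiled with 10x Chromium 3' chemistry, 1 library each. The full genotype of the model behind the tumor line is not reported here. The authors deposited raw UMI counts per gene and cell, made with Cell Ranger on mm10; the labels name version 7.1.0 and the file headers 7.0.1, and the handling of intronic reads is not given in the sources used here. Libraries were deposited separately, before the depth normalization and integration of the study. Of the deposited cells, those under 100 genes or 1000 UMIs, above 15% of UMIs from mitochondrial genes, or below 0.8 in log10 genes divided by log10 UMIs were removed, and cells with over 10 UMIs per 10000 of collagen and keratin genes (Col1a1, Col1a2, Col3a1, Krt5 and Krt14) were left out. Levels are UMIs per 10000 of the summed counts. The 10 genes, their pathway lists and the cell gates were chosen with earlier results of these data known.

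Cells were gated by markers and not clustered. Csf1r-positive cells had at least 1 Csf1r UMI. They were split into Cd207-rich cells (at least 10 UMIs per 10000), C1q-high cells (a C1q sum of at least 10), C1q-low cells with a UMI of Ly6c2 or Plac8, and the rest. The T cell gate held cells with no Csf1r and at least 2 of 5 T cell genes. The neutrophil gate was added after the levels had been seen and serves as a description. No doublet caller was run; cells with 2 or more T cell genes or over 50000 UMIs were left out as an alternative. For shares and joint detection, each cell was thinned once at random to 3000 UMIs, shallower cells being left out (11, 35, 55 and 20 Csf1r-positive cells), with exact Clopper-Pearson 95% intervals and, at 0 cells, a limit of 3 counts; both cover counting error only. Odds ratios had 0.5 added to each cell of the table.

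Sums of counts over the cells of a gate, 1 per library, entered the quasi-likelihood test of edgeR 4.0.16, with TMM scaling and the filterByExpr filter, across all genes of a gate, with Benjamini-Hochberg adjustment and a threshold of 0.05. Dividing the size of a log2 fold change by the root of its F value gave the SE. The test of the difference between gates had library as a block. Alternatives were DESeq2 1.42.0, no TMM factor, no filter, a replicate block, each library left out, all deposited cells, other limits on C1q, Csf1r and depth, and the sets of cells named in the text. Named genes are the 10 members, the 2 genes per pathway list with the largest change among those called without overlap of the libraries, and the 3 genes most alike to each member. Coordinates are from GENCODE on GRCm38, in which 31011 of the 31053 gene identifiers were found, and promoters from RefSeq.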

Additional observations from a re-analysis of the deposited data

Results flagged for a closer look

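Cells rich in collagen or keratin genes were left out of the comparisons above: 23 and 49 in control skins against 22 and 56 in skin tumors, at median depths of 20461 to 35586.5 UMIs. In these cells 6 of the 10 genes were higher in both tumors than in both control skins, with no test, as were 36.7% of the 14643 genes tested in Csf1r-positive cells. Vcam1 had 0 and 0.0361 UMIs per 10000 in control skins against 3.65 and 5.74 in skin tumors (mean 4.69). Spp1 had 0.0739 and 0.162 against 3.37 and 7.52 (mean 5.44), and Fn1 had 0 UMIs in both control skins against 3.37 and 3.43 (mean 3.40). Hmox1 had 0.296 and 0.334 against 0.802 and 1.87 (mean 1.33), Gpnmb 0.129 and 0.0270 against 0.341 and 0.668 (mean 0.504), and Arg1 0.0185 and 0 against 0.281 and 0.151 (mean 0.216). Apoe went the other way, at 64.1 and 57.1 in control skins against 1.93 and 0.473 in skin tumors. The cells of the 2 groups may be of different types, which was not tested.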

How the results depend on the processing

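In each alternative 1 choice was changed. In Csf1r-positive cells, the count of 5 members called higher became 3 without doubtful cells, 2 outside the Cd207-rich gate, 4 with thinned cells (Apoe lost, edgeR adjusted p = 0.0534) and 6 with no filter on low counts or by DESeq2 (Thbs1 gained), and ran from 2 to 6 with a library left out, while that of members called lower (0) ran from 0 to 1. Of all genes, 3202 were called, against 2002 with cells thinned to 3000 UMIs, 1577 outside the Cd207-rich gate and 290 to 5087 with a library left out. Over all immune cells, 4475 genes were called, against 2277 without doubtful cells and 1277 to 5413 with a library left out. Leaving out a library puts 1 sample in a group, which is then assumed to vary like the other group.

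In the C1q-high gate, the 2 members called higher became 4 with library totals as scale, 6 with no filter on low counts, 4 by DESeq2 and 0 to 6 with a library left out. The 1 member called lower became 2 with no filter, 2 by DESeq2, 0 without doubtful cells, 0 at a C1q sum of 5 and 0 to 3 with a library left out. The 759 genes called became 2346 with no filter, 1388 by DESeq2, 62 without doubtful cells, 382 with thinned cells and 0 to 2880 with a library left out. In the C1q-low gate, the 1 member called higher became 2 with library totals as scale, 5 with no filter, 2 by DESeq2, 3 with all deposited cells, 0 without doubtful cells, 2 with collagen- or keratin-rich cells kept, 0 with thinned cells, 2 at a C1q sum of 20 and 0 to 5 with a library left out. Members called lower there were 1 with no filter and 0 to 3 with a library left out, and the 749 genes became 1774 with no filter, 1280 with all deposited cells, 37 without doubtful cells, 251 with thinned cells and 146 to 1752 with a library left out. Nos2 could not be fitted there without doubtful cells, and neither Nos2 nor Vcam1 with thinned cells. For the difference between the gates, 1 member was called with library totals as scale, 1 without doubtful cells and 0 to 3 with a library left out, and the 12 genes became 0 at a C1q sum of 5, 3 at 20 and 3 to 383 with a library left out. The count of 24 pairs above the product became 42 at full depth and 27 to 30 with 1 tumor. The causes were not tested.

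The replicate numbers did not pair the samples by the labels, and the deviations of same-numbered libraries had a correlation of -0.0736 over 14643 genes. With the replicate block, 1 member was called lower and 1410 genes were called in Csf1r-positive cells, 2874 genes in all immune cells, 465 genes in the C1q-high gate and 3 members higher in the C1q-low gate. With that block edgeR no longer called Apoe in Csf1r-positive cells (adjusted p = 0.0696) or in all immune cells (adjusted p = 0.0511). It called Thbs1 higher in both (adjusted p = 0.0251 and 0.0154), Fn1 higher in all immune cells (0.0453), Gpnmb lower in Csf1r-positive cells (0.0423), Arg1 higher in the C1q-high gate (0.0273), and Vcam1 and Hmox1 higher in the C1q-low gate (0.0128 and 0.0426).

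The values that changed sign belonged to results that were not called in the setting reported, and are log2 fold changes. In Csf1r-positive cells, Spp1 was -0.15 without doubtful cells, -0.11 outside the Cd207-rich gate and -0.41 to 0.65 with a library left out, and Fn1 was -0.027 to 1.98 with a library left out. Over all immune cells, Gpnmb ran from -1.75 to 0.29. In the C1q-high gate, Apoe was -0.0016 without doubtful cells and -0.048 with thinned cells, and with a library left out Apoe ran from -0.088 to 0.48, Spp1 from -0.95 to 0.11 and Fn1 from -0.49 to 1.62. In the C1q-low gate, Thbs1 was -0.041 without doubtful cells, Fn1 0.37 with all deposited cells and 0.034 at a C1q sum of 20, Trem2 0.11 with all deposited cells and Apoe -0.19 without doubtful cells. With a library left out, Thbs1 ran there from -0.034 to 0.98, Fn1 from -1.03 to 0.50, Trem2 from -0.74 to 0.33 and Spp1 from -1.70 to 0.28. For the difference between the gates, Apoe was 0.036 with library totals as scale, 0.077 and 0.10 at C1q sums of 5 and 20 and 0.25 without doubtful cells, and Vcam1 was -0.35 at a C1q sum of 20. With a library left out, that difference ran from -0.32 to 0.26 for Apoe, -5.56 to 0.67 for Vcam1, -0.33 to 0.78 for Spp1, -3.53 to 8.88 for Nos2 and -0.20 to 0.40 for Hmox1.

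Depth limits the rare genes: in Csf1r-positive cells of control skins, Nos2 rests on 4 UMIs in all.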
